A study of Mus musculus with 10 samples.

Results

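The levels of 10 Wnt/β-catenin target genes and TCF/LEF factors were followed through the chemical reprogramming of mouse fibroblasts by the C6FAE cocktail. The genes were *Axin2*, *Lef1*, *Tcf7*, *Tcf7l1*, *Tcf7l2*, *Nkd1*, *Sp5*, *Notum*, *Rnf43* and *Znrf3*. They were taken by name as a readout of the GSK3 inhibitor in the cocktail, with earlier results of these data known. Counts of the 10 set beside shares of all genes are therefore descriptions only. All 10 were found among the 23197 genes of the count table. Mouse embryonic fibroblasts (MEFs) isolated from ICR embryos were cultured with CHIR99021 (an inhibitor of GSK3), the compound abbreviated 6 (an inhibitor of the TGF-β receptor ALK5), Forskolin (an activator of adenylyl cyclase), AM580 (a retinoic acid receptor agonist) and EPZ004777 (an inhibitor of the histone methyltransferase DOT1L). The recipe in the study's methods also lists valproic acid and bFGF, while the labels name C6FAE, and whether the sequenced cells received valproic acid is not settled by the sources used here. The cells after d0 had the agents together, and the part of CHIR99021 cannot be told apart from that of the other agents, of the change of medium or of time in culture.

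Single cells were picked by hand at 10 time points, and their names place them in 12 groups. d0 cells were untreated MEFs, d1, d2, d3, d4, d5, d6p, d8, d12 and d20 cells had the cocktail for the number of days in the name, and d8c and d12c cells were picked from colonies of the same days. The p in d6p is not explained. The labels list 10 sequenced batches, but a cell's name gives only its group and a running number, so that cells could not be placed in batches. No group had replicates, and groups were compared without tests. Of 808 cells, the 670 with at least 4000 detected genes were kept, between 20 (d8c) and 86 (d6p) a group. The loss was uneven. The filter left out 34 of 72 d20 cells, 45 of 96 d12c cells and 12 of 84 d0 cells. It left out 5 of 72 d12 cells and 0 of 40 d1 cells. Statements on the cells of a group cover kept cells unless all deposited cells are named.

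Without a Wnt signal, GSK3 in the destruction complex phosphorylates β-catenin, which is then degraded. When GSK3 is inhibited, β-catenin accumulates, enters the nucleus and binds TCF/LEF factors on DNA. Among the genes then transcribed are several that feed back on the pathway, and these serve as general readouts of it in many tissues. *Axin2* encodes a scaffold of the destruction complex, *Nkd1* an inhibitor that binds Dishevelled, *Notum* a secreted enzyme that removes the lipid from Wnt proteins, and *Rnf43* and *Znrf3* membrane ubiquitin ligases that clear Wnt receptors. *Lef1* and *Tcf7* encode TCF/LEF factors that are themselves frequent targets, *Tcf7l1* a mostly repressive factor, and *Tcf7l2* a factor that acts in both directions. *Sp5* encodes a zinc-finger transcription factor induced directly by the pathway.

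Promoter sequence is shown for the genes whose windows held the letters that TCF/LEF factors are known to bind, and for *Axin2* as a window without them. The 250 bases before a RefSeq start (GRCm38.p6) were read on both strands for 4 words that share their first letters, the word CTTTGAA, the word CTTTGAT, the word CTTTGTA and the word CTTTGTT. Starts were listed for 8 of the 10 genes, with 14 windows, and each window was found exactly once on its chromosome in NCBIM37 (mm9), the build used for the deposited files. A word was present in 3 of the 14 windows (21.4%) and in 4874 of all 32851 windows of the table (14.8%). Capitals mark the words, sequences run 5′ to 3′ on the strand of the gene, and a match is no evidence of a bound site.
*Sp5*, chr2:70312730-70312979, plus strand, ending at the annotated start and outside annotated genes: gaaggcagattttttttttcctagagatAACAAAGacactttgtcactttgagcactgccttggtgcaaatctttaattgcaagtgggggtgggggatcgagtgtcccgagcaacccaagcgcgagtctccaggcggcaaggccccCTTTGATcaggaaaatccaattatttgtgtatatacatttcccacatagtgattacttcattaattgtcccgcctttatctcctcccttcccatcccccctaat
*Axin2*, chr11:108781413-108781662, plus strand, ending at the annotated start and outside annotated genes: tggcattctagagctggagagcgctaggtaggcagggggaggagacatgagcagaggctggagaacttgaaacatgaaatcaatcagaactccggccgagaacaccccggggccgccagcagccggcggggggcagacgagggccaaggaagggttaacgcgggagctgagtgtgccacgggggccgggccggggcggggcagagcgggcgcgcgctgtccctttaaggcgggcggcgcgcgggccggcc
*Lef1*, chr3:130858962-130859211, plus strand, in an intron before a RefSeq start inside the gene: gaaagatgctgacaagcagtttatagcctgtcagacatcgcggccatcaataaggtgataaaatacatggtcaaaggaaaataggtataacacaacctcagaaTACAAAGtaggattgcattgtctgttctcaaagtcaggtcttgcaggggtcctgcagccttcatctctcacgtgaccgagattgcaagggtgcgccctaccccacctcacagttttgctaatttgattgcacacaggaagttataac
*Tcf7l2*, chr19:55969561-55969810, plus strand, in an intron before a RefSeq start inside the gene: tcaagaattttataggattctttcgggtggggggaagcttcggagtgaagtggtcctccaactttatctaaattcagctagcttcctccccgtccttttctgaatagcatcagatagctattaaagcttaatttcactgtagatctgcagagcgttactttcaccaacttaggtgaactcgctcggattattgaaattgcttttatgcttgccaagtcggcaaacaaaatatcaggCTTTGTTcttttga
*Sp5* alone had 2 words, and 1.43% of all windows had as many. The other windows of *Lef1* and *Tcf7l2* and those of *Tcf7*, *Tcf7l1*, *Nkd1* and *Rnf43* held none.

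Counts are of UMIs (short tags, each marking 1 captured RNA molecule), and the level of a gene in a cell is given in CPM, its UMIs scaled to the total of the cell without spike-in RNAs. The median cell had 510306 UMIs, with group medians from 195480 (d20) to 1055206 (d2), 344196 at d0 and 749158 at d1. Folds are ratios of mean CPM over cells, and a gene was called higher or lower at 2-fold or more. Genes were compared when their mean over the 12 groups was at least 1 CPM, which all 10 genes passed. Intervals are exact 95% intervals of the pooled counts and cover counting error only. In these cells fibroblast markers were present throughout the first days. The summed level of 10 of them (*Col1a1*, *Thy1*, *Prrx1* and others) was 3747 CPM at d0 and 17256 at d8, and it was 96.9 at d20, where the 10 XEN markers (*Sox17*, *Gata4*, *Sall4* and others) summed to 1666. At d0 the XEN markers summed to 73.6 CPM. The macrophage list was at 29.6 CPM or less in every group, with *Ptprc* and *Adgre1* near 0. Skeletal muscle markers summed to 327 CPM at d0, with a median cell of 4.06 and a highest cell of 22161, and to 1115 CPM at d12c, with a median cell of 2.23 and a highest cell of 55592. At d2 they summed to 143 CPM, with a median cell of 3.71 and a highest cell of 10994. In every other group they were at 35.8 CPM or less.

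On the first day the feedback genes *Axin2*, *Nkd1*, *Notum* and *Rnf43* rose with *Lef1*, *Tcf7* and *Sp5*, while *Tcf7l2* fell and the feedback gene *Znrf3* was not called. Against d0, 7 of the 10 genes were higher at d1, beside 14.8% of the 12495 genes compared, and 1 was lower, beside 16.1%. The median of the 10 was 2.88 on the log2 scale of the ratio, against 0.02 for all genes. The 7 genes that were higher were *Axin2*, *Lef1*, *Tcf7*, *Nkd1*, *Sp5*, *Notum* and *Rnf43*, and each stood above at least 96.1% of the genes compared. The means of *Znrf3* and *Tcf7l1* stayed within 2-fold of d0.

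*Axin2* went from 5.39 CPM ± 14.9 (SD, n = 72 cells) at d0 to 45.7 CPM ± 36.7 (SD, n = 40 cells) at d1, an 8.47-fold difference. Its level ran from 0 through a median of 1.52 to 107.9 CPM over the d0 cells, and from 0 through 37.4 to 145.6 CPM over the d1 cells. The ranges therefore overlapped, but the lower quartile at d1 (18.6 CPM) lay far above the upper quartile at d0 (3.67 CPM). Pooled over cells, 104 UMIs at d0 and 1642 at d1 gave a ratio of 16.3 (13.4 to 20.1), where a pooled value weighs each cell by its depth. With all deposited cells the log2 ratio of the means was 1.99 in place of 3.08.

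*Lef1* was at 16.3 CPM ± 49.8 (SD, n = 72) at d0 and at 115.6 CPM ± 117 (SD, n = 40) at d1, a 7.10-fold difference. The median cell had 2.87 CPM at d0 and 92.1 CPM at d1, while the highest d0 cell (310.8 CPM) exceeded all but 2 of the d1 cells. A small number of d0 cells thus already carried as much *Lef1* RNA as cells under the cocktail. In pooled counts the ratio was 11.9 (10.7 to 13.3).

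*Nkd1* rose 5.96-fold, from 17.4 CPM ± 24.96 (SD, n = 72) to 104 CPM ± 130 (SD, n = 40). Every d1 cell had at least 2.80 CPM, and the median went from 9.75 to 61.6 CPM. *Notum* rose 7.66-fold, from 3.06 CPM ± 7.43 to 23.4 CPM ± 43.0 (SD, same cells), but its median moved only from 1.17 to 3.76 CPM, with an upper quartile of 22.6 CPM at d1. Of the 40 d1 cells, 12 lay above the highest d0 cell in *Nkd1* and 4 in *Notum*.

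*Tcf7*, *Sp5* and *Rnf43* were close to 0 in the starting fibroblasts. *Tcf7* rose from 1.06 to 14.2 CPM (13.4-fold, 6.68-fold in pooled counts with an interval of 5.23 to 8.64). *Sp5* rose from 0.574 to 6.79 CPM (11.8-fold), on 23 and 234 UMIs. *Rnf43* rose from 0.176 to 2.86 CPM (16.2-fold), on 11 and 108 UMIs, and its median was 0 in both groups. For these 3 genes the folds thus rest on few molecules at d0 and in part on single cells. At d1, 1 cell held 75 of the 108 *Rnf43* UMIs and 1 cell held 98 of the 234 *Sp5* UMIs. Without the cell of the highest CPM their d1 means were 1.65 and 4.80 CPM. At d0, 1 cell held 50 of the 75 *Tcf7* UMIs. The intervals of the pooled ratio were 6.84 to 16.9 for *Sp5* and 5.45 to 20.9 for *Rnf43*. An annotated gene on the same stretch, A630014C17Rik, spans the start of *Tcf7*, and whether the counting used strand is not stated.

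*Tcf7l2* moved the other way. It was among the better expressed of these genes in fibroblasts, with 178 CPM ± 209 (SD, n = 72) at d0, a median of 113.6 and a highest cell of 893.9 CPM. At d1 it was at 35.1 CPM ± 40.4 (SD, n = 40), with a median of 22.2 and a highest cell of 220 CPM, a 5.08-fold lower mean. The lower quartile at d0 (56.4 CPM) was above the upper quartile at d1 (55.0 CPM). *Tcf7l1* was at 11.9 CPM at d0 and 10.9 CPM at d1, with medians of 0 and 1.24 CPM. Without the highest cell of each group it was more than 2-fold lower at d1 (log2 ratio of -1.06). Of 9 alternative ways to compute the fold, only that 1 was past 2-fold and 6 kept the sign. With cells cut down to 50000 UMIs the log2 ratio was 0.51, so that no direction held. *Znrf3* was at 48.1 CPM ± 91.4 and 57.3 CPM ± 65.3, a ratio of the means of 1.19 that is small beside the spread over cells. Its median nevertheless went from 7.89 to 38.55 CPM, while the highest d0 cell had 487.6 CPM. In cells cut down to 50000 UMIs each, 46.5% had *Znrf3* UMIs at d0 and 72.5% at d1.

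**Figure D1:**
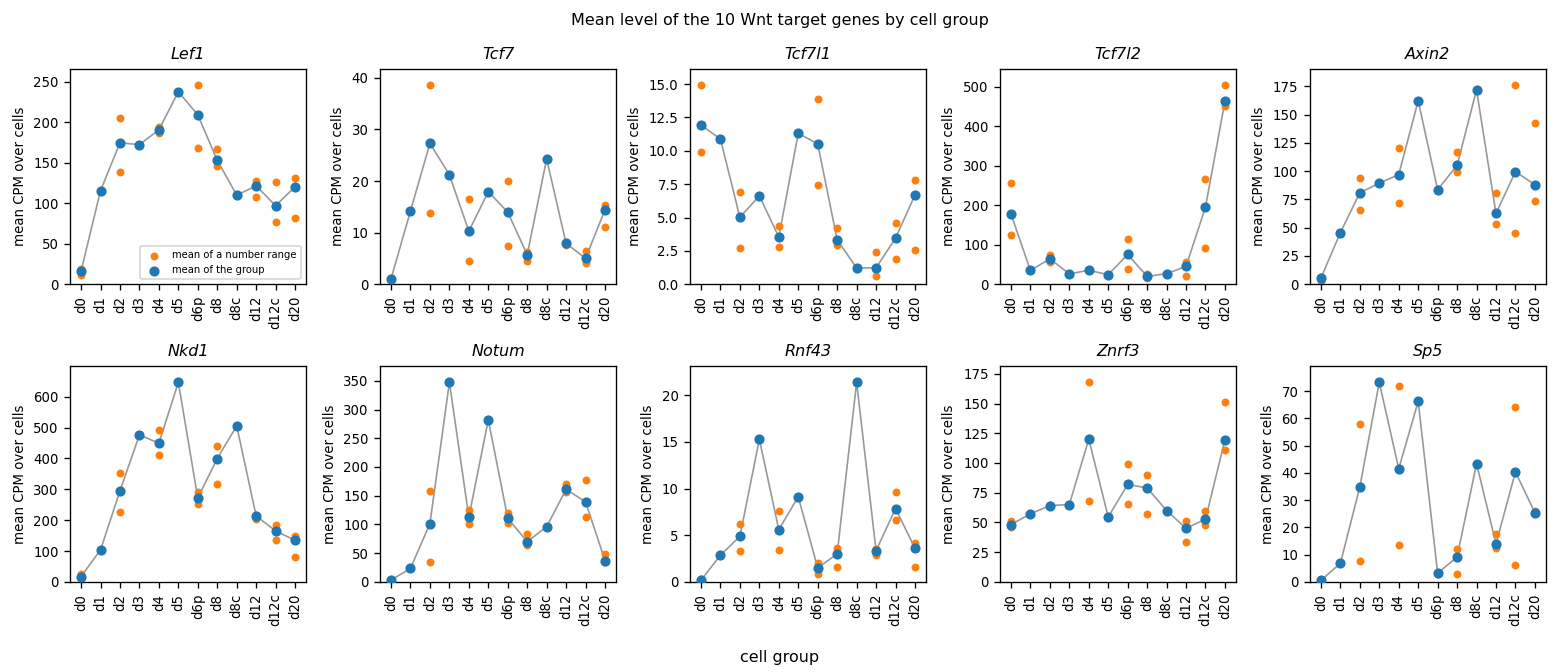
Mean CPM over cells (y axis, linear, a separate scale for each gene) of the 10 genes in the 12 cell groups (x axis), with blue points for the groups and orange points for ranges of cell numbers within a group. *Axin2* starts at 5.39 CPM at d0 and stays at or above 45.7 CPM afterwards, while *Tcf7l2* falls from 178 CPM to 35.1 CPM at d1 and reaches 463 CPM at d20.

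Over the following days the 7 genes stayed high but did not peak together. *Axin2* was at 80.9 CPM at d2, 89.3 at d3, 96.9 at d4, 162 at d5, 83.6 at d6p, 105 at d8 and 171.8 at d8c. Every one of these groups had a median of at least 38.3 CPM, against 1.52 at d0, but the SDs over cells (79.5 to 250 CPM) exceeded the steps between neighbouring groups. Its order of levels within d2 to d8c was thus not larger than the spread over cells.

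*Nkd1* showed the clearest separation from fibroblasts. Its mean was 295 CPM at d2, 476 at d3, 450 at d4, 647 at d5, 272 at d6p, 400 at d8 and 506 at d8c. From d2 to d8c every kept cell had *Nkd1* UMIs, with a lowest cell between 14.1 and 33.2 CPM by group. Of the 442 cells from d1 to d8c, 334 (75.6%) lay above the highest d0 cell (126.8 CPM), the largest share among the 10 genes.

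*Notum* and *Sp5* had their highest mean at d3. *Notum* reached 347 CPM ± 418 (SD, n = 38) at d3 and 282 CPM ± 253 (SD, n = 36) at d5, with 102 at d2, 113 at d4, 111 at d6p and 69.9 at d8 around them. No d3 cell was below 17.3 CPM, and 224 of the 442 cells from d1 to d8c (50.7%) were above the highest d0 cell (54.2 CPM). *Sp5* reached 73.2 CPM ± 124 (SD, n = 38) at d3 and 66.2 CPM ± 85.5 (SD, n = 36) at d5, but was at 3.23 CPM at d6p, where its median was 0. Cells with high *Sp5* stood beside cells with none in every group, and 122 of 442 cells (27.6%) were above the highest d0 cell (15.8 CPM).

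What the running numbers stand for is not stated in the sources used here, and the levels of *Sp5* and *Notum* differed between number ranges of a group. At d2, *Sp5* was at 57.8 CPM in cells 1 to 48 and at 7.68 CPM in cells above 48, and *Notum* at 158 and 35.2 CPM, with median depths of 721613 and 1254580 UMIs. At d4 the order was reversed for *Sp5*, with 13.4 CPM in cells 1 to 48 and 72.0 CPM in cells above 48. d3 and d5, which held the peaks, had cells 1 to 48 only. From d2 to d5 the differences of *Sp5* between days were therefore no larger than the difference between number ranges of 1 day. All 18 later ranges nevertheless lay above both d0 ranges for *Axin2*, *Lef1*, *Tcf7*, *Nkd1*, *Sp5*, *Notum* and *Rnf43*.

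The TCF/LEF factors split. *Lef1* climbed to 238 CPM ± 159 (SD, n = 36) at d5, where the lowest cell had 53.8 CPM, and was at 153 CPM at d8. *Tcf7* was highest at d2 with 27.3 CPM ± 44.1 (SD, n = 83) and fell to 5.71 CPM at d8. *Tcf7l1* was at its highest mean at d0 and at 3.33 CPM at d8 and 1.22 CPM at d8c, where 13 UMIs in 1 of 20 cells made up the whole value. *Tcf7l2* stayed between 20.01 and 75.4 CPM from d1 to d8c, and its median fell to 1.36 CPM at d8 and 0.619 CPM at d8c. *Tcf7l1* and *Tcf7l2* were thus both below their d0 means at d8, when *Lef1* was above its own.

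The ubiquitin ligase genes differed from each other. *Rnf43* reached 15.3 CPM ± 47.0 (SD, n = 38) at d3 and 21.4 CPM ± 40.8 (SD, n = 20) at d8c, with 1.49 CPM at d6p. Its median stayed under 2 CPM in every group, so that few cells made up its means. *Znrf3* lay between 54.6 and 120 CPM from d1 to d8c and of these groups its mean was past 2-fold of d0 only at d4, where 1 cell had 2036 CPM and the mean without it was 94.8 CPM. The ratio of pooled UMIs to d0 was 2.02 at d4 and 2.17 at d8. Its median was 7.89 CPM at d0, 47.0 at d2 and 45.6 at d8, but 17.0 at d6p and 6.14 at d8c.

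Against d0, 7 genes were higher at d8, beside 22.2% of the genes compared, and 2 (*Tcf7l1* and *Tcf7l2*) were lower, beside 18.4%. *Nkd1* was 23.0-fold higher, *Notum* 22.9-fold, *Axin2* 19.5-fold, *Rnf43* 17.1-fold, *Sp5* 15.9-fold, *Lef1* 9.40-fold and *Tcf7* 5.40-fold. *Tcf7l2* was 8.90-fold lower and *Tcf7l1* 3.58-fold lower. *Znrf3* was 1.64-fold higher by the mean and 2.17-fold higher (2.04 to 2.30) in pooled counts. The median of the 10 was 3.61 on the log2 scale, against 0.05 for all genes.

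**Figure D2:**
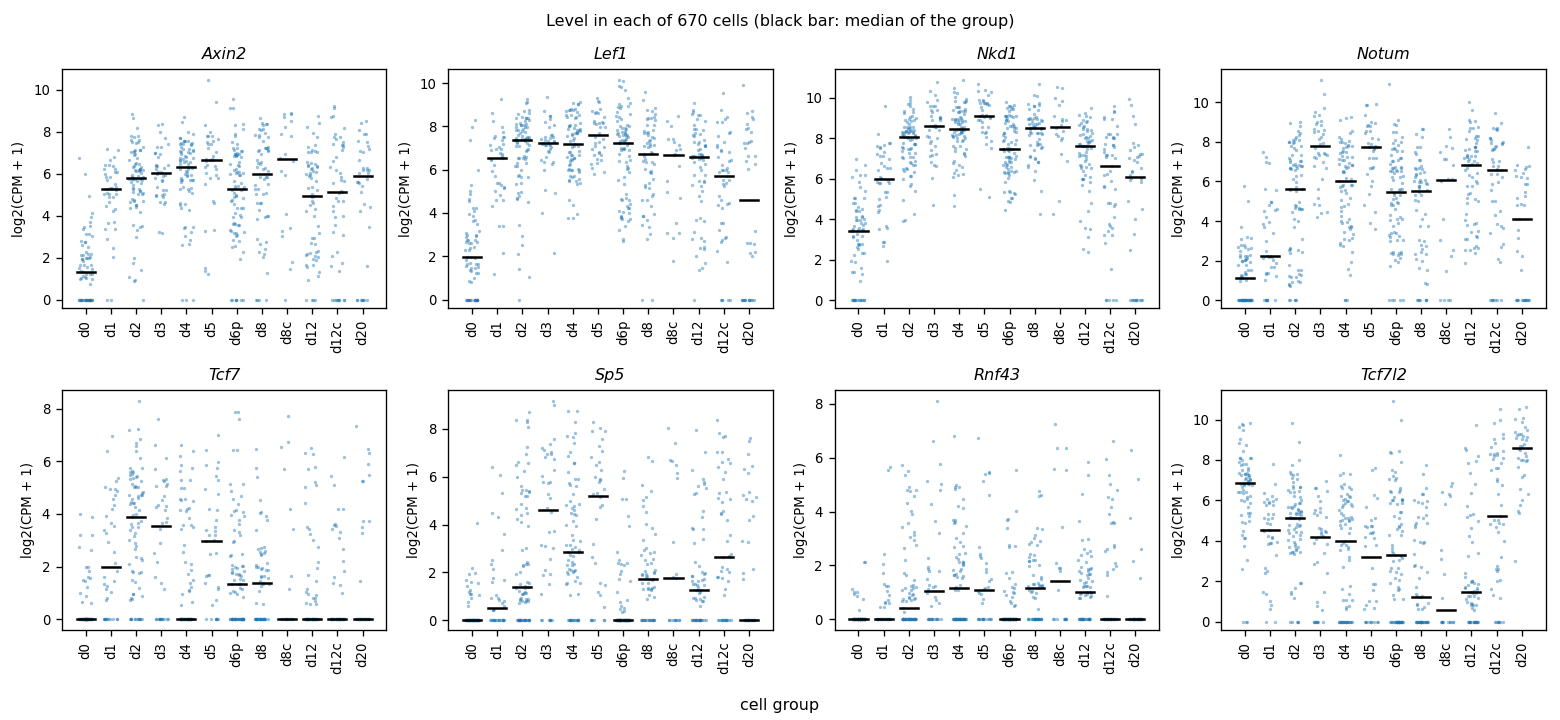
Level of 8 of the genes in each of the 670 kept cells (y axis, log2(CPM + 1)) by cell group (x axis), where a point is a cell and the black bar the median of the group. Medians of *Axin2*, *Lef1* and *Nkd1* step up between d0 and d1, that of *Notum* climbs until d3, and cells at 0 remain in most groups for *Tcf7*, *Sp5* and *Rnf43*.

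The number of the 10 genes seen in a cell rose with these levels. In 647 cells that could be cut down at random to 50000 UMIs each, the median cell held UMIs of 3 of the 10 genes at d0, 5 at d1, 6 from d2 to d5 and 5 at d20. Without thinning the medians were 6 at d0, 8 at d1 and 6 at d20. The summed level of the 7 genes that rose was 24.02 CPM in the median d0 cell, 257 at d1, 1278 at d5, 671 at d8 and 270 at d20. At d0 the highest cell had a sum of 322 CPM, and the lowest d5 cell had 197. The 7 genes were summed because they were higher than d0 in these same cells. A sum above that of d0 is therefore in part given by the choice of genes and is a description only.

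Colony cells of day 8 differed from unpicked d8 cells in some of the genes. Of the 10, 3 were higher in d8c, beside 15.6% of the genes compared, and 1 was lower, beside 22.8%. *Rnf43* was 7.11-fold, *Sp5* 4.76-fold and *Tcf7* 4.25-fold higher, on 259, 546 and 358 UMIs in 20 d8c cells, and their medians in d8c were 1.78, 2.44 and 0 CPM. The difference thus lay in a minority of colony cells. *Tcf7l1* was 2.73-fold lower on 13 UMIs. *Axin2*, *Nkd1*, *Notum* and *Lef1* were within 2-fold, and both groups had fibroblast markers in every cell, at 908 CPM or more in d8c. Their summed mean was 17256 CPM at d8 and 9792 at d8c. That of the keratinocyte and epithelial markers was 24.3 and 73.0, and that of the macrophage markers 6.24 and 29.6. Of the keratinocyte and epithelial markers, *Krt14* (36.9 CPM) and *Krt5* (19.51 CPM) were highest at d8c, and *Krt8* was at 13.04 CPM. The part of these 3 marker lists in the differences was not tested.

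At day 12 the cells that had not been picked from colonies kept the raised targets. Against d0, 7 genes were higher, beside 22.7% of the genes compared, and 2 were lower, beside 21.9%. *Notum* was 52.7-fold higher, at 161 CPM ± 193 (SD, n = 67), with UMIs in every d12 cell and a lowest cell of 2.66 CPM. *Sp5* was 24.3-fold, *Rnf43* 19.0-fold, *Nkd1* 12.3-fold, *Axin2* 11.6-fold, *Tcf7* 7.48-fold and *Lef1* 7.46-fold higher. For *Tcf7*, pooled counts gave 3.08-fold (2.39 to 4.01), and on the scale of the spike-ins it lay below d0 (log2 ratio of -0.41), where the median of all genes was -2.14. *Tcf7l1* was 9.68-fold lower and *Tcf7l2* 3.93-fold lower, while *Znrf3* had a ratio of 0.938.

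All 67 kept d12 cells were fibroblast-marked, which means that the mean log2(CPM + 1) of the 10 fibroblast markers was above that of the 10 XEN markers. This is a cut on a score and not a cell type, and 4 of the 156 cells of d12, d12c and d20 lay within 1 of it. The raised *Axin2*, *Lef1*, *Nkd1* and *Notum* at d12 were therefore measured in cells that carried fibroblast markers, as they were from d1 to d8c, where none of the cells was XEN-marked. The summed keratinocyte and epithelial markers (*Krt8*, *Epcam* and others) were at 23.5 CPM or more in every d12 cell. The median cell had 0 at d0 and 1277 at d20. The mean of *Krt8* was 190.9 CPM at d12 and 1155 CPM at d20, and that of *Epcam* 40.46 and 284.1 CPM. *Krt14* was at 22.35 CPM at d12 and at 0 at d20, and *Krt5* was at 0 in both groups. The part of these markers in the levels of *Sp5* and *Tcf7l2* in d12 cells was not tested.

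Colony cells of day 12 had 4 genes higher than unpicked d12 cells, beside 20.3% of the genes compared, and 0 lower, beside 19.2%. These were *Tcf7l2* (4.31-fold), *Sp5* (2.89-fold), *Tcf7l1* (2.81-fold) and *Rnf43* (2.34-fold). Among the d12c cells 22 were fibroblast-marked and 29 XEN-marked, and *Tcf7l2*, *Sp5* and *Axin2* differed between these classes. *Tcf7l2* had a mean of 277 CPM ± 261 (SD, n = 29) and a median of 261 CPM in XEN-marked cells of d12c, against 56.0 CPM ± 190 (SD, n = 89) and a median of 2.02 CPM in fibroblast-marked cells of d12 and d12c, a 4.94-fold difference. The lower quartile of the first (53.7 CPM) lay above the upper quartile of the second (17.7 CPM), although single fibroblast-marked cells reached 1474 CPM. *Sp5* was at 65.8 CPM ± 85.0 and 12.2 CPM ± 31.9 in the same cells (5.41-fold), with medians of 33.2 and 1.62 CPM.

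*Axin2* was 2.22-fold lower in the XEN-marked cells, with 40.9 CPM ± 56.6 against 90.8 CPM ± 126. The fibroblast-marked cells differed by group, with 177 CPM ± 183 (SD, n = 22) and a median of 145.6 CPM in d12c, and 62.6 CPM and a median of 30.3 CPM in d12. Against those of d12c the XEN-marked cells thus lay further below, and against those of d12 alone the call does not hold, while pooled counts of both gave a ratio of 0.652 (0.586 to 0.723). *Tcf7l1* was 3.44-fold higher in the XEN-marked cells, on 50 UMIs against 128. Of the 10 genes 3 were thus higher, beside 22.6% of the genes compared, and 1 was lower, beside 29.2%. *Lef1*, *Tcf7*, *Nkd1*, *Notum*, *Rnf43* and *Znrf3* were within 2-fold. All 21 kept d12c cells numbered 1 to 24 were fibroblast-marked and 29 of the 30 numbered 49 to 96 were XEN-marked, so that within d12c the marker class and the number range cannot be told apart.

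**Figure D3:**
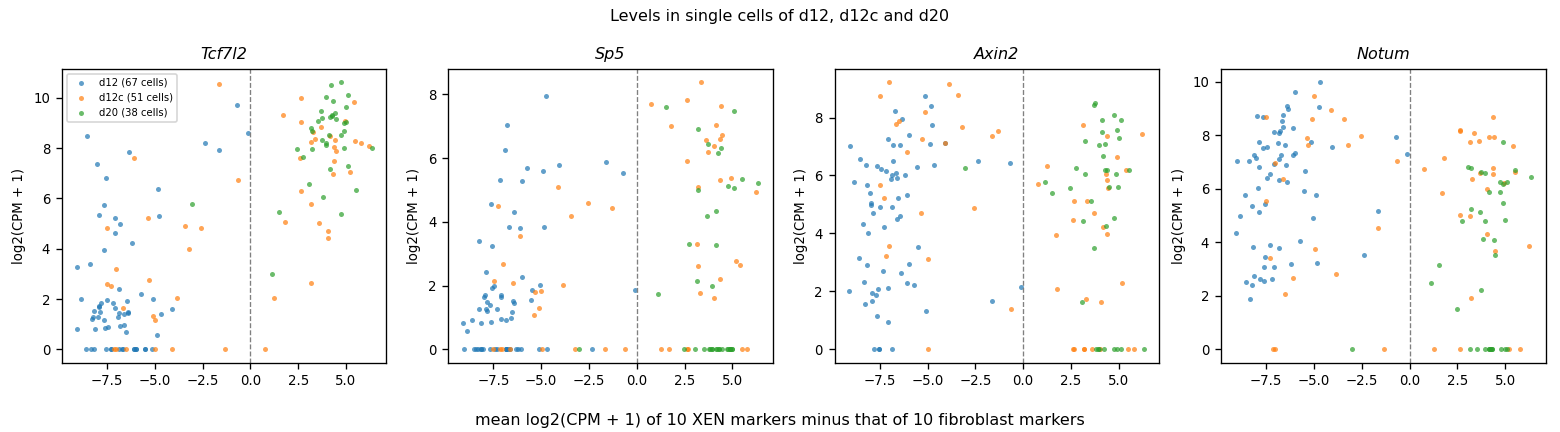
Level of *Tcf7l2*, *Sp5*, *Axin2* and *Notum* (y axis, log2(CPM + 1)) in single cells of d12 (blue), d12c (orange) and d20 (green) against the difference between the mean log2 levels of 10 XEN and 10 fibroblast markers (x axis), with a dashed line at 0. Right of the line *Tcf7l2* is high in nearly all cells, with a median of 261 CPM in d12c and 408 CPM in d20 cells, while *Notum* and *Axin2* are high in cells on both sides.

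At d20, when 37 of the 38 kept cells were XEN-marked, the targets were still above fibroblasts and *Tcf7l2* had changed sides. Against d0, 9 of the 10 genes were higher, beside 23.8% of the genes compared, and 0 were lower, beside 22.8%. *Sp5* was 44.2-fold higher, *Rnf43* 20.5-fold, *Axin2* 16.3-fold, *Tcf7* 13.7-fold, *Notum* 12.1-fold, *Nkd1* 7.75-fold and *Lef1* 7.39-fold. The median cell had 0 CPM of *Sp5*, *Rnf43* and *Tcf7* at d20 as at d0. UMIs of these were seen in 18, 6 and 12 of the 38 d20 cells. For *Sp5* 99 of 274 UMIs and for *Tcf7* 65 of 181 came from 1 cell. *Tcf7l2* was 2.60-fold and *Znrf3* 2.49-fold higher, and *Tcf7l1* had a ratio of 0.561 by the mean and of 0.380 in pooled counts (0.262 to 0.534), on 36 UMIs. The fold of *Rnf43* rests on 25 UMIs at d20, of which 19 came from 1 cell, and without that cell its mean was 1.59 CPM in place of 3.61. All 9 alternatives gave *Rnf43* a smaller log2 ratio, from 0.57 to 3.74 against 4.36, and 7 of them kept it past 2-fold.

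*Tcf7l2* at d20 was at 463 CPM ± 375 (SD, n = 38), the highest group mean of its course. Every kept d20 cell had *Tcf7l2* UMIs, from 6.94 CPM in the lowest through 389 CPM in the median to 1571 CPM in the highest cell. The quartile range at d20 (211 to 613 CPM) lay above that at d0 (56.4 to 197 CPM), although single cells of both groups overlapped. Cells numbered 1 to 48 had 452 CPM and those above 48 had 505 CPM, both above the 126 and 256 CPM of the d0 ranges.

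The 7 targets were uneven from cell to cell at d20. *Lef1* had a mean of 120 CPM ± 186 and a median of 36.6 CPM, and its lower quartile was 0. *Nkd1* had 135 CPM ± 216 with a lower quartile of 1.12 CPM, against a lowest cell of 18.3 CPM at d8. *Axin2* had 88.0 CPM ± 98.0 with a median of 59.1 CPM and was thus near its level at d8 (median 63.9 CPM). The 1 fibroblast-marked d20 cell was the highest in *Lef1*, *Nkd1* and *Tcf7*, at 951.5, 993.3 and 159.8 CPM. In the 37 XEN-marked cells their means were 97.9, 111.5 and 10.5 CPM, and the median of *Lef1* was 8.06 CPM. The depth at d20 was the lowest of all groups, so cells at 0 can also be cells with too few UMIs to show the gene. With cells cut down to 50000 UMIs each, 58.3% of d20 cells had *Lef1* UMIs, 63.9% *Nkd1* and 77.8% *Axin2*. At d8 these shares at the same depth were 84.75%, 98.3% and 81.4%.

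Directly against d12, 3 genes were higher at d20, beside 30.1% of the genes compared, and 1 was lower, beside 26.4%. The share that was higher was near that of all genes. *Tcf7l2* was 10.2-fold higher, above 95.1% of the genes compared. *Tcf7l1* was 5.43-fold higher on 36 and 98 UMIs, and *Znrf3* 2.65-fold. *Notum* was 4.35-fold lower, at 37.1 CPM ± 47.8 against 161 CPM ± 193, and pooled counts put the ratio at 0.239 (0.214 to 0.267). *Lef1* and *Rnf43* had ratios of 0.991 and 1.076, and neither direction held. *Rnf43* lay below d12 under all 9 alternatives tried, by log2 ratios from -3.07 to -0.13, and *Lef1* lay between -1.71 and 0.78. *Tcf7l1* was past 2-fold under 5 of the 9 and *Znrf3* under 7, with log2 ratios of 0.46 and 0.69 on the scale of the spike-ins.

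**Figure D4:**
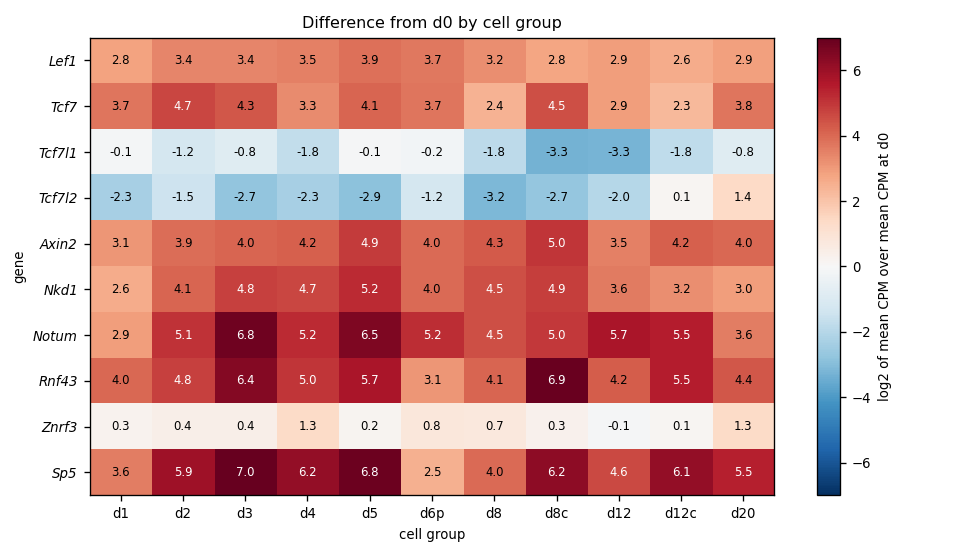
Log2 of the ratio of mean CPM to mean CPM at d0 (colour and number, red higher and blue lower) for the 10 genes (rows) in the 11 later groups (columns). The row of *Tcf7l2* is below 0 from d1 to d12 and at 1.38 at d20, and those of *Axin2*, *Lef1*, *Tcf7*, *Nkd1*, *Sp5*, *Notum* and *Rnf43* are above 0 throughout.

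The ratio of gene UMIs to spike-in UMIs bears on these comparisons. The study's methods do not give the amount of spike-in per cell. The RNA content of the cells therefore cannot be told apart from the dose or capture of the spike-ins. The median cell held 29.5 gene UMIs for each spike-in UMI at d0, 37.8 at d1, 15.4 at d8, 8.06 at d12 and 4.19 at d20. On the scale of the spike-ins the median of all genes moved by -2.65 (log2) between d0 and d20, and *Tcf7l2* and *Znrf3* then lay below d0 at d20, by log2 ratios of -1.33 and -1.18. Relative to the median of all genes they remained above. At d1 the median of all genes on that scale was 0.20, and 7 of the 10 genes were higher and 1 lower, as with CPM. The log2 ratio of *Axin2* at d1 was 4.23 on that scale and 3.08 by mean CPM.

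Of the genes that act before the targets, few moved on the first day. Of 11 genes of the destruction complex and β-catenin 10 passed the filter, of which 0 were higher and 0 lower at d1, beside 14.8% and 16.1% of all genes, with a median log2 ratio of 0.04 and with *Csnk1d* highest (1.54-fold) and *Amer1* lowest (1.996-fold lower). *Ctnnb1*, which encodes β-catenin and is named after its values were seen, was at 87.3 CPM at d0, 81.6 at d1, 216.5 at d6p and 74.6 at d20. The β-catenin protein was not measured. At d20 against d0, 1 of these 10 genes was higher (*Csnk1e*, a casein kinase, 2.42-fold) and 0 were lower, beside 23.8% and 22.8%.

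The receptors were mixed. Of 18 Frizzled, Lrp, Lgr and Dishevelled genes 15 passed the filter. At d1, 2 of these were higher, beside 14.8% of all genes compared, and 1 was lower, beside 16.1%, with *Lgr6*, a receptor for R-spondins, 14.7-fold higher (13.8 against 0.937 CPM) and *Fzd4* 14.7-fold lower (0.118 against 1.73 CPM, 9 and 63 UMIs). At d8, 6 were higher and 3 lower, beside 22.2% and 18.4% of all genes. At d20, 5 were higher and 6 lower, beside 23.8% and 22.8%, with *Fzd3* at 115.6 CPM (7.42-fold higher) and *Fzd1* at 1.29 CPM (12.9-fold lower than 16.7 CPM at d0). *Fzd1* had first climbed to 128 CPM at d12.

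Of 12 nuclear cofactors and corepressors, 4 were higher and 0 lower at d1, beside 14.8% and 16.1% of all genes, and 5 were higher and 1 lower at d20, beside 23.8% and 22.8%. The corepressor gene *Tle2* had the highest fold at each, 3.62-fold at d1 (0.771 against 0.213 CPM, 41 and 15 UMIs) and 6.39-fold at d20 on 15 UMIs in each group. *Tcf4* stood on this list and encodes an E protein, not the factor of *Tcf7l2*, which is often called TCF4 too. It went from 113 CPM at d0 through 879 at d5 to 63.6 at d20, the opposite course to *Tcf7l2*, and is named after its values were seen.

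Other genes known as Wnt targets did not move as one with the 10. Of 20 such genes 17 passed the filter. At d1, 5 of these were higher and 3 lower, beside 14.8% and 16.1% of all genes, with *Apcdd1*, an inhibitor at the membrane, 8.08-fold higher on 25 and 7 UMIs and *Dact1* 20.5-fold lower. At d8, 8 were higher and 5 lower, beside 22.2% and 18.4%. *Tnfrsf19*, a receptor of the TNF family, was then at 233 CPM against 6.53 CPM at d0 (35.7-fold), and *Jag1*, a Notch ligand, 9.40-fold lower. At d20, 6 were higher and 5 lower, beside 23.8% and 22.8%, and the zinc-finger gene *Sp8*, a relative of *Sp5*, was at 16.0 CPM against 0.0824 CPM at d0, on 158 and 2 UMIs, a pooled ratio with an interval of 98.2 to 3005. The cell cycle genes *Ccnd1* and *Myc*, named after their values were seen, were at 243 and 74.2 CPM at d0, 632 and 47.7 at d1, and 116 and 33.5 at d8. The median log2 ratio of these lists at d1 was 0.25 for the receptors, 0.52 for the cofactors and 0.01 for the other targets, against 0.02 for all genes and 2.88 for the 10. At d20 the medians were 0.37 for the destruction complex, 0 for the receptors, 0.46 for the cofactors and 0 for the other targets, with a gene at 0 UMIs set to 0 where its floor gave no direction, against 0.10 for all genes and 3.28 for the 10.

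**Figure D5:**
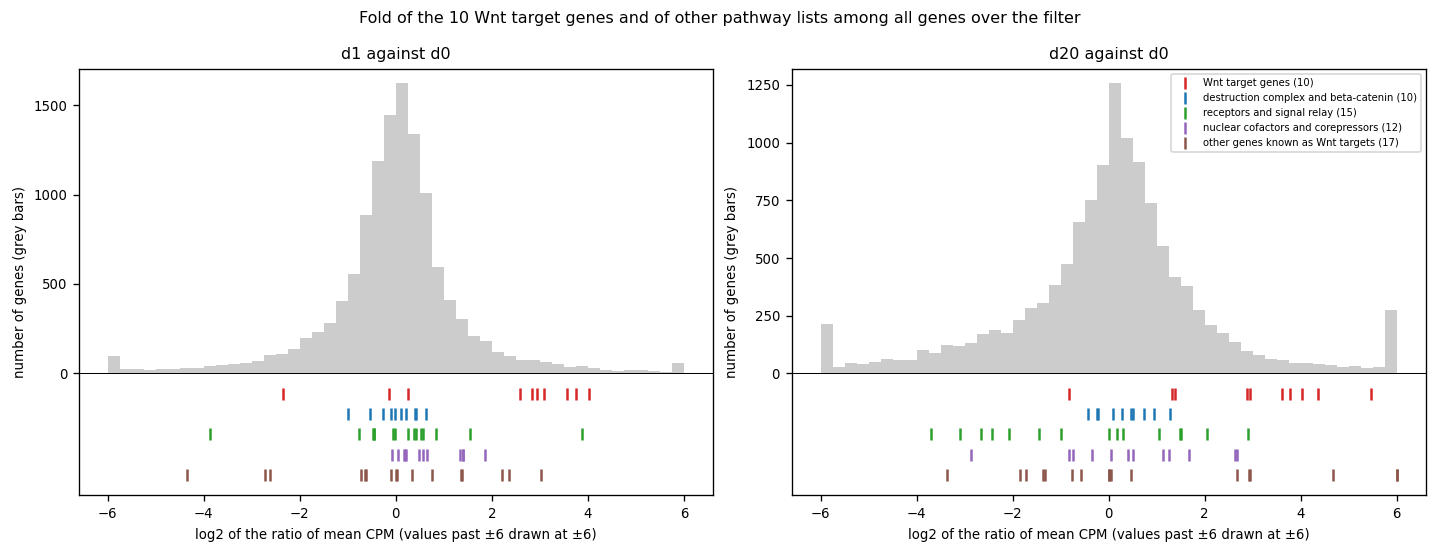
Number of genes (y axis, grey bars) by log2 ratio of mean CPM (x axis) at d1 (left) and d20 (right) against d0, with ticks under the bars for the 10 Wnt target genes and for the 4 other pathway lists. At d1, 7 of the 10 red ticks lie between 2.58 and 4.02 and *Tcf7l2* at -2.34, while the destruction complex list stays between -0.997 and 0.62.

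The genes whose course over the 12 groups was most like that of a member were taken from 9600 genes with a mean of at least 5 CPM, by Pearson's r of log2(mean CPM + 1). Groups differ in depth and in cell makeup for all genes alike, so these are descriptions only. For *Nkd1* they were *Plppr3* (0.975), *Oaz2* (0.967) and *Dync2li1* (0.938), and for *Axin2* they were *Sp3os* (0.955), *Plppr3* (0.925) and *Nkd1* (0.923). For *Notum* they were *Rac3* and *Jarid2* (both 0.920) and *Nkd1* (0.891), and for *Sp5* they were *Med25* (0.930), *Rnf43* (0.906) and *Ociad2* (0.850). *Lef1* was nearest to *Stra6* (0.944), *Tcf7* to *Icmt* (0.915), *Tcf7l1* to *Zbtb22* (0.954), *Tcf7l2* to *Ubxn2a* (0.941), *Rnf43* to *Sp5* (0.906) and *Znrf3* to *Jkamp* (0.885). Others of the 10 were thus among the 3 nearest genes of *Axin2*, *Notum*, *Sp5* and *Rnf43*, and not of the other 6.

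By position in GENCODE M1 on NCBIM37, 5 of the 10 genes lie on chromosome 11, namely *Znrf3* (5176327 to 5344850), *Tcf7* (52065873 to 52096681), *Rnf43* (87476224 to 87549041), *Axin2* (108781663 to 108812097) and *Notum* (120515102 to 120522489). They are far apart, and the mean of *Znrf3* did not share the course of the means of the other 4. *Lef1* lies on chromosome 3 (130813389 to 130927274), *Tcf7l1* on 6 (72576372 to 72739248), *Tcf7l2* on 19 (55816300 to 56008144), *Nkd1* on 8 (91045243 to 91118786) and *Sp5* on 2 (70312980 to 70315786). All 10 are annotated as protein-coding.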

How the data were processed

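The count table deposited by the authors holds whole-number UMI counts per gene and cell. Per the labels and methods, reads were assigned to cells by barcode and trimmed before alignment to mm9 transcripts, and copies with 1 UMI were counted once. The aligner and the use of strand are not given in the sources used here. The 5 largest counts were multiples of 1000 and had been rounded. Of the entries without the 92 ERCC spike-ins, 4 with repeated names were left out, and 26 names were dates in place of genes.

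Cells were grouped by the first part of their name, and no column of other samples was present. CPM were computed without spike-ins in cells with at least 4000 detected genes (138 of 808 cells were left out), averaged over cells and compared as ratios. A group with 0 UMIs was set to a floor of 3 counts over the group, which could bound a fall of that group but give no rise. Since cells are not replicates and could not be placed in the 10 batches, no significance test was made. Shares and sums carry exact Clopper-Pearson and Poisson intervals at 95%, for counting error only. The named genes were the 10, the highest and lowest gene of each list in a comparison, and the 3 genes nearest to each of the 10. The genes and lists were chosen with earlier results of these data known. The computation of folds was checked on simulated counts. Alternatives covered the filters on cells and genes, scaling, the group value, the call at 2-fold and thinning. Python 3.11.15, numpy 2.4.6, pandas 2.3.3 and scipy 1.17.1 were used, with edgeR 4.0.16 and DESeq2 1.42.0 for scaling factors only. Sequences are from RefSeq and positions from GENCODE M1.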

Additional observations from a re-analysis of the deposited data

How the results depend on the processing

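The counts of the 10 genes past 2-fold were recomputed under 12 settings in the 5 comparisons given in full. At d8 and d12 against d0, between 6 and 8 genes were higher and 2 or 3 lower under each. At d1 against d0, 2 genes rather than 1 were lower without the highest cell of each group, and 8 rather than 7 were higher with means of log2 values (*Znrf3*, log2 ratio of 1.38), where 28.2% of all genes were. At d20 against d0, 1 gene rather than 0 was lower with cells of at least 6000 detected genes, with pooled CPM, with means of log2 values, without the highest cell and with edgeR TMM or DESeq2 factors. On the spike-in scale 4 rather than 9 genes were higher and 3 were lower. At d20 against d12, 2 genes rather than 1 were lower with all deposited cells or with cells of at least 6000 detected genes, 4 with means of log2 values and 3 on the spike-in scale, and 5 rather than 3 were higher with pooled CPM, 4 on thinning, and 2 with means of log2 values, on the spike-in scale or at 3-fold. The causes were not tested. On the spike-in scale the median of all genes moved by -2.14 (log2) at d12 and -2.65 at d20 against d0, and the log2 ratio of *Tcf7* at d12 became -0.41, that of *Tcf7l2* at d20 -1.33 and that of *Znrf3* at d20 -1.18. At d20 against d0 TMM scaling turned the shares of all genes higher and lower from 23.8% and 22.8% to 18.3% and 25.3%, and the spike-in scale to 4.36% and 87.2%. Of 50 folds, 39 were past 2-fold, 36 of these kept their sign under all 9 alternatives and 31 stayed past 2-fold. Shares of cells with a UMI fell on thinning in 114 of 120 cases. No paired analysis was possible because the names of cells carry no batch. Depth limits *Rnf43*, *Tcf7*, *Tcf7l1* and *Sp5* most, with medians of 0 in several groups.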
